A study of Mus musculus with 2 samples.

Results

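Mir10a, Mir10b, Mir196a-1, Mir196a-2, Mir196b and Mir615, 6 miRNA genes that lie inside the mouse Hox clusters, were examined in small RNA of the embryonic face. They were chosen by gene identifier, and all 6 were found among the 1973 miRNA genes counted. MicroRNA sequencing had been applied to embryonic facial prominence, the tissue that builds the face and jaws, from healthy B6NCrl mouse embryos of 15.5 days. Biological replicates numbered 2, both of 1 group. Replicate 1 combined 78 embryos and replicate 2 combined 62, each with males and females mixed and both traced by the labels to the same donor record. With no treatment or second tissue, the design allows levels within the tissue and a comparison of one pool with the other.

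Hox genes encode homeodomain transcription factors that give cells their position along the head-to-tail axis. They stand in 4 clusters, Hoxa to Hoxd, in which genes toward one end are used further forward in the body and genes toward the other end further back. The Mir10 genes sit beside the Hox4 genes and the Mir196 genes beside the Hox9 genes, and both families are known to be made in the same body regions as their Hox neighbours and to repress Hox transcripts. Neural crest cells of the foremost facial primordia are known for being free of Hox expression, while those of the more posterior arches express Hox genes.

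Of the sequences shown here, those of the Mir10 genes share a seed, those of the Mir196 genes share another, and each Mir615 arm has its own. The seed largely decides which messages a miRNA can pair with, and the whole sequence decides which reads can be told apart. The sequences are from RefSeq on GRCm38.p6, 5′ to 3′, with the seed (bases 2 to 8) in capitals, and mature entries were found for all 6 genes.
miR-10a-5p: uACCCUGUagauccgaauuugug
miR-10b-5p: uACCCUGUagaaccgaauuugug
miR-196a-5p: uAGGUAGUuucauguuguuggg
miR-196b-5p: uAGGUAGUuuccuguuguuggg
miR-615-3p: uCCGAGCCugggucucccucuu
miR-615-5p: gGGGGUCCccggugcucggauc

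Mir10a and Mir10b make 5p miRNAs of 23 bases with the same seed, and no other gene of the table carries it. They differ at 1 position, U12A (the miR-10a-5p base first, counted from the 5′ end), so a full-length 5p read differs between the genes by that base alone, while the 3p arms differ at 3 positions. No source used here gives the mismatches allowed in mapping. How reads were divided between genes this alike could therefore not be checked, which bears on every value of Mir10a and Mir10b and of the Mir196 genes below. The Mir196 5p miRNAs have 22 bases and differ at the same position, A12C from miR-196a-5p to miR-196b-5p. Their seed is shared by the 3 Mir196 genes and by no other gene of the table. Neither arm of Mir615 shares its seed with another gene, and the arms are rich in G and C, at 63.6% for the 3p and 77.3% for the 5p arm against 40.9% to 45.5% for the 5p miRNAs of the other genes. The 3p miRNAs of those genes run from 36.4% to 59.1%, the highest being miR-196b-3p.

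The Mir196a genes cannot be separated by their main product. The 5p miRNA occurs whole in both hairpins, which are shown because the capitals mark the 22 bases they share in an unbroken run, exactly the mature 5p sequence.
Mir196a-1: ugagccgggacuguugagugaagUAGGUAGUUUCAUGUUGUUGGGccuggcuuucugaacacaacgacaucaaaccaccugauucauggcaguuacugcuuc
Mir196a-2: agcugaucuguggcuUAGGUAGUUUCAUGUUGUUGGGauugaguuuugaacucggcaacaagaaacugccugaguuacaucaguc
A read that ends within the capitals matches both places, and the deposited counts set reads that mapped to several places aside. Under that rule only reads that reach at least 1 base into the lower-case part, or that come from the 3p arm, could be counted, so the values of both Mir196a genes are uncertain and may fall short of the amount made. The files do not separate 5p from 3p reads for any of the 6 genes.

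The genes are spread over all 4 clusters, and the positions below are on GRCm38 (mm10). Mir10a lies on chromosome 11 (96317165 to 96317274, plus strand), 992 bases upstream of Hoxb4. It is outside the GENCODE genes on its strand but inside the RefSeq span of Hoxb3. Mir196a-1 lies in the same cluster (96265164 to 96265265, plus strand), 6064 bases upstream of Hoxb9. Mir10b lies on chromosome 2 (74726070 to 74726137, plus strand) in introns of Hoxd3 and Hoxd4. On chromosome 15, Mir196a-2 (102973350 to 102973434, plus strand) and Mir615 (103014910 to 103015001, plus strand) both lie in an intron of the long GENCODE model of Hoxc5. The RefSeq span of Hoxc5 is shorter and holds Mir615 but not Mir196a-2. Mir196a-2 stands between Hoxc10 and Hoxc9, 1451 and 3597 bases from them. Mir196b lies on chromosome 6 (52230081 to 52230165, minus strand) in a GENCODE exon of Hoxa9, outside its annotated coding sequence and untranslated regions. By RefSeq it is outside Hoxa9, 2710 bases upstream of that gene and 1031 bases downstream of Hoxa10. Among the 1894 of 1973 counted genes with a GENCODE M21 position, no other lay within 200000 bases of a Hox gene of these clusters. Counted genes without a position could not be searched.

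**Figure D1:**
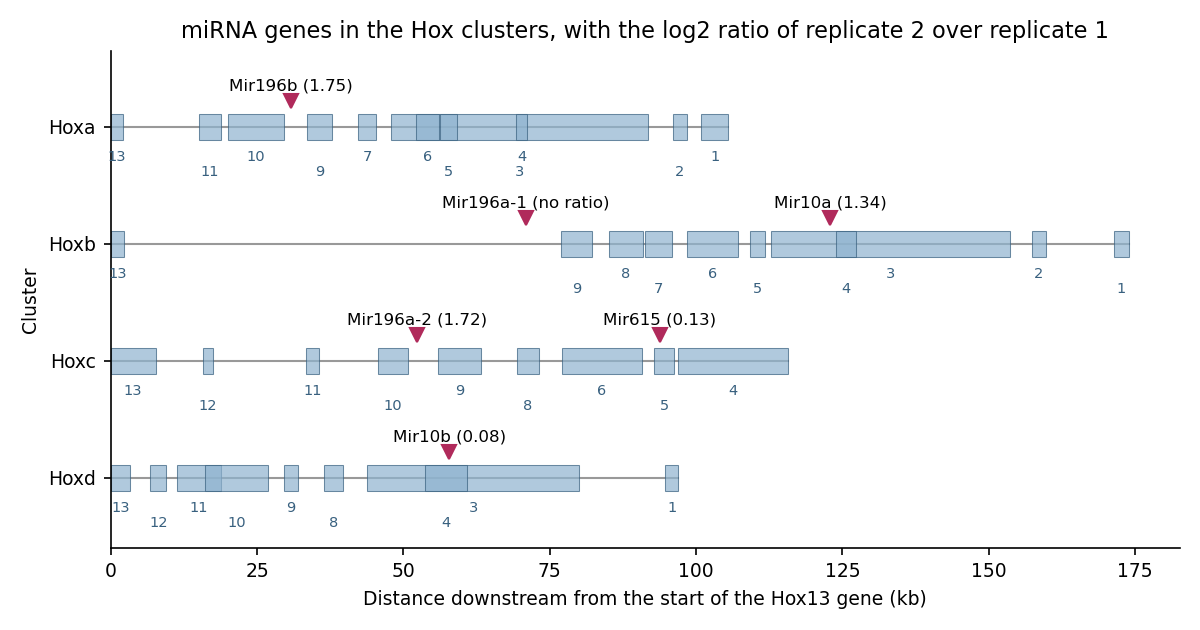
Each row is a Hox cluster, with distance in kb downstream from the start of its Hox13 gene, Hox genes as bars with their number and miRNA genes as triangles with the log2 ratio of replicate 2 over replicate 1 in brackets. The Mir10 genes sit at Hox4 and the Mir196 genes next to Hox9, and genes of one cluster (Mir196a-2 at 1.72 and Mir615 at 0.13) have unlike ratios.

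Replicate 1 held 5840705 reads and replicate 2 held 14085643, of which 2978463 (51.0%) and 6408008 (45.5%) were assigned to miRNA genes. Reads mapped to several places came to 30.6% and 29.7% of the reads, and unmapped reads to 16.2% and 21.8%. Of the marker lists, the epithelial genes summed to 151799 CPM (assigned reads scaled to a common library size) in replicate 1 and 128693 in replicate 2, and the cartilage genes to 15342 and 14429, with none of their genes at 0 reads. Mir203, Mir205 and Mir200a were lower in replicate 2, while the other 4 of the 7 epithelial genes were called higher there by the exact binomial test described below (median log2 ratio 0.11). Genes with at least 10 reads in each library, 333 in all, were tested between the pools.

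In both pools the Hox cluster miRNAs were dominated by Mir10b, with the other Mir10 gene far below it and the Mir196 genes lowest. Mir10b had 17250 reads in replicate 1 and 38793 in replicate 2, or 5764 and 6083 CPM, and ranked 37th and 35th among all counted genes. This gave 0.579% of assigned reads in replicate 1 (95% exact Clopper-Pearson interval 0.571 to 0.588) and 0.605% in replicate 2 (0.599 to 0.611). Such intervals hold for counting error alone, because PCR copies of one molecule were not told apart. Mir10b alone made up 94.8% of the summed CPM of the 6 genes in replicate 1 and 89.7% in replicate 2. At 5923 ± 226 CPM (SD, n = 2) it stood between Gm25927 (6092 ± 97.8 CPM) and Mir21a (5839 ± 69.5 CPM) among detected genes, by less than its own SD in either direction.

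Mir10a, its partner with the same seed, had 644 reads in replicate 1 and 3474 in replicate 2, or 215 and 545 CPM. The pools did not agree on its level, and it moved from rank 159 to rank 121. Mir615, the miRNA of Hoxc5, had 239 and 559 reads, or 79.9 and 87.7 CPM, almost the same level in both pools (83.8 ± 5.52 CPM, SD, n = 2). In both pools its level lay below that of Mir10a and above that of every Mir196 gene.

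The Mir196 genes were the lowest of the 6. Mir196b had 54 reads in replicate 1 and 387 in replicate 2, or 18.0 and 60.7 CPM. Mir196a-2 had 8 and 56 reads, or 2.67 and 8.78 CPM. Mir196a-1 had no read in replicate 1 and 2 reads in replicate 2 (0.314 CPM), at or under the level of 3 reads in each library, which is 1.00 CPM in replicate 1 and 0.470 CPM in replicate 2. Mir196a-1 was therefore not detectable at this depth in reads mapped to 1 place, which says nothing of reads that match both Mir196a genes.

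The order Mir10b, Mir10a, Mir615, Mir196b, Mir196a-2, Mir196a-1 was the same in both pools, and the values of neighbours in this order did not overlap between the pools. Divided by hairpin length, from 68 bases for Mir10b to 110 for Mir10a, the levels kept this order in each pool. How far ligation or amplification favoured one sequence over another was not tested. Of the 6 genes, 4 passed the minimum of 10 reads in each library, and Mir196a-2 and Mir196a-1 did not. All reads of the 6 genes lay on the strand of the gene, none on the opposite one, in both libraries, and for Mir10b the exact 95% interval allows no less than 99.98% on that strand in replicate 1.

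**Figure D2:**
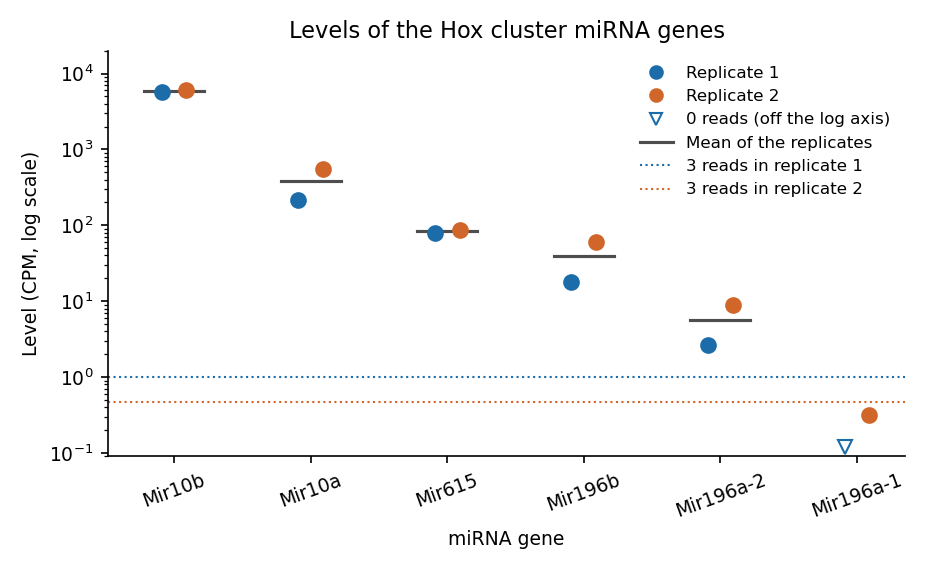
Points give the level of each gene in CPM on a log axis in replicate 1 (blue) and replicate 2 (orange), bars the mean of the pools, and dotted lines the level of 3 reads in each library. Mir10b and Mir615 have nearly equal points, while Mir10a, Mir196b and Mir196a-2 lie higher in replicate 2.

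Between the pools, Mir10a and Mir196b were higher in replicate 2 while Mir10b and Mir615 were near equal. Mir196b was 3.36-fold higher (log2 ratio 1.75, 95% interval 1.34 to 2.19), with an adjusted p of 4.64e-21 in the exact binomial test. Mir10a was 2.53-fold higher (log2 ratio 1.34, 1.22 to 1.46, exact binomial adjusted p = 3.90e-125). Mir10b passed the same test with a ratio of only 1.06-fold (log2 ratio 0.08, 0.05 to 0.10, exact binomial adjusted p = 1.20e-08), and Mir615 did not pass (log2 ratio 0.13, −0.09 to 0.36, exact binomial adjusted p = 0.354). The test called 3 of the 4 tested members and, as background, 53.5% of the 333 genes, 25.8% as higher in replicate 2 and 27.6% as higher in replicate 1. It compares 1 library with 1 library and covers counting error only, and an exact permutation of the 2 libraries cannot give a p below 0.5.

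Mir196a-2, the gene of the Hoxc cluster with the miR-196a product, had 3.29 times the level in replicate 2 (log2 ratio 1.72, 95% interval 0.64 to 3.00, unadjusted exact binomial p = 0.000433). With 8 reads in replicate 1 it fell short of the minimum and was not in the main test. For Mir196a-1, with 0 and 2 reads, no ratio can be given. Summed over the 3 genes of the Mir196 seed, the reads were 62 in replicate 1 and 445 in replicate 2, or 20.7 and 69.8 CPM. The Mir10 seed summed to 5979 and 6628 CPM, a log2 ratio of 0.15, since Mir10b outweighs Mir10a.

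A stricter test set the ratios against the variation between the pools in all genes. With the edgeR common dispersion of 0.0303, a coefficient of variation of 17.4% between the pools, the edgeR exact test called 2.1% of the 333 genes, which is 7 genes, 1.8% as higher in replicate 2 and 0.3% as higher in replicate 1. Mir196b (edgeR exact test adjusted p = 0.00485) and Mir10a (adjusted p = 0.0176) were 2 of these 7, and Mir10b and Mir615 were not called (adjusted p = 1 for each). The dispersion was estimated from the same 2 libraries with both treated as 1 group, so the members took part in its estimate. The other genes called, looked up after their values were seen, were Gm23935, Mir6240, Mir6538 and Gm26117, higher in replicate 2, and Mir511, higher in replicate 1.

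Mir10a had the most reads of the 7 genes. Of the 127 other tested genes with at least as many reads on average as Mir10a, 0 had a log2 ratio as large in either direction, and their ratios ran from −0.58 to 0.81. For Mir196b, 1 of 232 genes with at least as many reads had a larger ratio, which was Gm23935 with 87 and 795 reads. The genes with ratios nearest to that of Mir10a were Mir6236, Mir122 and Mir449b, within 0.10, 0.14 and 0.20 of it on the log2 scale. Those nearest to Mir196b were Gm26117, Gm23935 and Mir6538, within 0.13, 0.35 and 0.37. Likeness here rests on 2 libraries and 293 candidate genes with at least 50 reads on average. Mir543, Mir671 and Mir137 were nearest to Mir10b, and Mir16-2, Mir200c and Mir652 to Mir615, each within 0.0046 of the member.

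**Figure D3:**
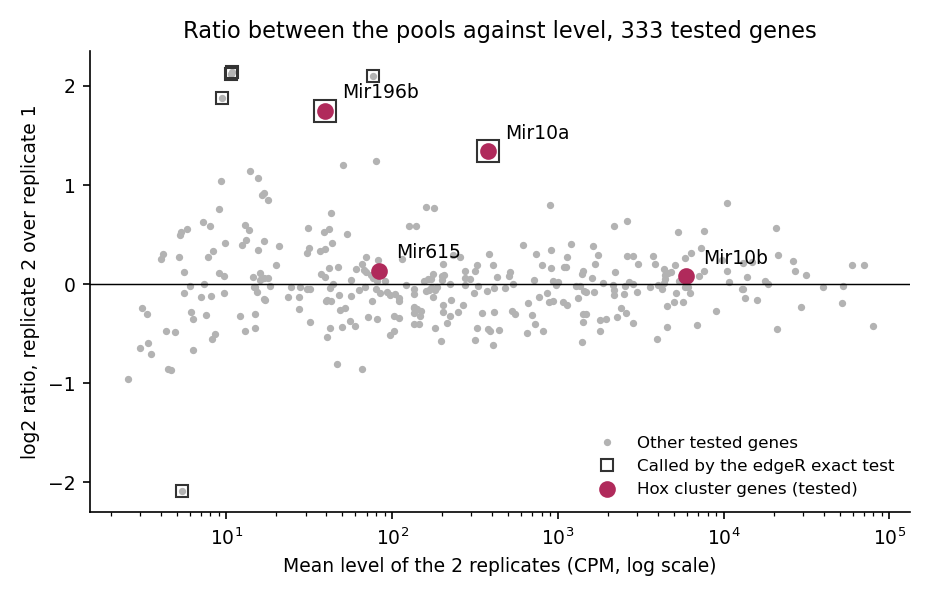
Each point is 1 of the 333 tested genes, with its mean level in CPM on a log axis and its log2 ratio of replicate 2 over replicate 1, and squares mark the 7 genes called by the edgeR exact test. Mir10a (1.34) and Mir196b (1.75) stand above most of the 332 other tested genes, of which 5 and 4 have a ratio as high or higher. Mir615 (0.13) and Mir10b (0.08) lie within the band of other genes.

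Ratios between genes of the same library need no scaling, so all 15 pairs of the 6 genes were compared in this way. Mir10a made up 3.60% of the reads of the Mir10 genes in replicate 1 (95% exact interval 3.33 to 3.88) and 8.22% in replicate 2 (7.96 to 8.49), so that Mir10b outnumbered it 26.8-fold in one pool and 11.2-fold in the other (Fisher's exact test, two-sided, p = 1.77e-104, adjusted over the 15 pairs 2.66e-103). This share rests on how the mapping divided 5p reads that are 1 base apart, which was not tested. By the same test 6 pairs differed between the pools at an adjusted p under 0.05. These were each of Mir10a, Mir196b and Mir196a-2 against each of Mir10b and Mir615, with log2 differences in size from 1.21 to 1.67. As background, the same test called 45.3% of the 55278 pairs of all tested genes, adjusted over those pairs, and 4 of the 6 pairs of tested members, so the count of pairs called is no mark of these genes.

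Only the Hoxc cluster had a pair of genes with ratios, and these were unlike, as were the ratios within the Mir10 family. Mir196a-2 and Mir615, of the same cluster and the same long Hoxc5 model, differed by a log2 value of 1.58 (95% interval 0.47 to 2.88, Fisher's exact adjusted p = 0.00580). Mir10a and Mir10b, both beside a Hox4 gene, differed by 1.26 (1.14 to 1.39). Mir196b outnumbered Mir196a-2 6.75-fold in replicate 1 and 6.91-fold in replicate 2, although they lie on different chromosomes, and the difference between the pools had a 95% interval from −1.21 to 1.32 on the log2 scale. These folds leave out reads that match both Mir196a genes, so they may not give the relative amounts made. Mir196b against Mir10a differed by 0.41 (−0.02 to 0.87, Fisher's exact adjusted p = 0.130), and Mir615 against Mir10b by 0.06 (−0.17 to 0.28, adjusted p = 1 by the same exact test). The intervals of the Mir196a-2 pairs are wide, and a p above the threshold does not show that these genes vary alike. The 5 pairs with Mir196a-1 did not pass, with 2 reads to go on.

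**Figure D4:**
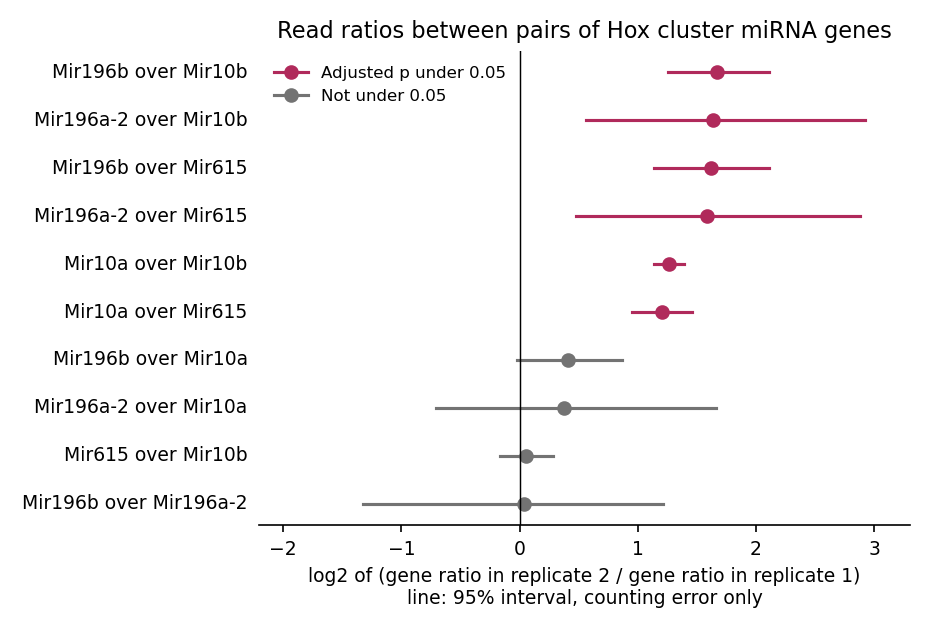
Each line is a pair of genes, with the log2 of their read ratio in replicate 2 over that in replicate 1 as a point and its 95% interval (counting error only) as a bar; the 5 pairs with Mir196a-1 have no finite value and are not drawn. The 6 pairs in red, with values from 1.21 to 1.67, join one of Mir10a, Mir196b and Mir196a-2 to Mir10b or Mir615.

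The families whose mature sequences resemble these had far higher summed levels in reads mapped to 1 place. The 3 counted Mir99 and Mir100 genes share up to 11 bases in a row with the Mir10 products, as the capitals show for the closest pair.
miR-10a-5p: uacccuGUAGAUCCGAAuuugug
miR-100-5p: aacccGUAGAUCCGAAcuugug
They summed to 86049 CPM in replicate 1 and 104479 in replicate 2, and all 3 were called higher in replicate 2 by the exact binomial test, with a median log2 ratio of 0.23. Bases 2 to 8 of the Mir196 products, the seed, also occur in the let-7 miRNAs other than let-7e, but there at bases 3 to 9, 1 base further from the 5′ end.
miR-196b-5p: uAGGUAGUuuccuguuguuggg
let-7i-5p: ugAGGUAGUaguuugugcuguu
The 10 counted let-7 genes summed to 148566 and 158163 CPM. Since let-7a and let-7c have several gene copies, this leaves out reads that map to several places. All 10 were tested, and 5 were called higher in replicate 2, 3 higher in replicate 1 and 2 were not called by that test. Their median log2 ratio was 0.07 beside −0.01 for all 333 genes. As background for both families, 25.8% of the 333 genes were called higher in replicate 2 and 27.6% higher in replicate 1. The edgeR exact test called none of the genes of either family.

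In the pool with more Mir10a and Mir196b reads, some markers of other cell types were also higher. In the liver, gut and pancreas list, 2 of 6 tested genes were called higher in replicate 2 and 4 were not called by the exact binomial test, near the 25.8% of all genes called in that direction. The called genes were Mir375, at 1742 and 2625 CPM, and the liver miRNA Mir122, at 30.4 and 70.1 CPM, while Mir192 (81.5 and 79.0 CPM) and Mir194-2 (45.4 and 40.5 CPM) were among those not called. The 9 counted genes of the list summed to 1928 CPM in replicate 1 and 2847 in replicate 2, with none at 0. Of the 6 ciliated epithelium genes, 4 were called higher in replicate 2, namely Mir449a, Mir449b, Mir449c and Mir34c. Mir34a (455 and 328 CPM) was called higher in replicate 1, and Mir34b was not called. The list summed to 8876 and 14734 CPM, with none at 0.

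Neural and muscle markers had lower sums in that pool. Neural genes summed to 638 and 553 CPM, with Mir128-1 and Mir128-2 called higher in replicate 1 and 3 not called, and the median log2 ratio of the 5 tested was −0.02. Below the minimum of reads, Mir219a-2 had 3 and 41 reads and Mir9-3 had 8 and 33, and 2 of 11 genes, Mir124a-1 and Mir124a-2, were at 0. Muscle genes summed to 8080 and 6096 CPM, with Mir133a-1 and Mir133a-2 at 0. Of 4 tested muscle genes, Mir206 and Mir499 were called higher in replicate 1 and none in replicate 2. As background for both lists, 27.6% of all tested genes were called higher in replicate 1. Mir124a and Mir133a, like Mir196a, have several gene copies with the same main product, so their zeros hold for reads mapped to 1 place. The sums hold for such reads too, and Mir1a-1 (1 and 3 reads), Mir9-2 (0 and 1) and Mir124a-3 (1 and 2) added almost nothing to them. Blood genes summed to 684 and 747 CPM, but they did not move together. By the exact binomial test Mir144 was called higher in replicate 1 (84.9 and 46.9 CPM). Mir451a (111 and 167 CPM) and Mir223 (488 and 533 CPM) were called higher in replicate 2. The endothelial Mir126a stood at 24124 and 28452 CPM and was called higher in replicate 2 as well. The edgeR exact test called no gene of any marker list, and the part of these cell types in the ratios of Mir10a and Mir196b was not tested. In such pools of tissue, fewer cells of a type and less of a miRNA per cell cannot be told apart.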

How the data were processed

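The unit is raw counts of reads for each miRNA gene, deposited as 1 table for each library, on mm10 and GENCODE M4 by the deposited file list and the labels; no source used here names the aligner or counter. Counts on either strand were used, and totals left out the lines without a gene. Symbols and positions came from GENCODE M21 on the same build (1894 of 1973 genes matched) and sequences and Hox gene distances from RefSeq on GRCm38.p6. CPM used TMM factors (edgeR 4.0.16, R 4.3.3). Genes with at least 10 reads in each library were compared by a two-sided exact binomial test (null: reads divide as the effective library sizes), Benjamini-Hochberg adjusted over the 333 genes and a threshold of 0.05; the edgeR quasi-likelihood test has no residual degrees of freedom here. The function was tested on simulated counts with counting error only. That cannot show how the test behaves where the pools vary beyond counting error. Pairs of genes were compared by two-sided Fisher's exact tests; Mir10a against Mir10b was planned, and the other pairs were added after the data were seen. Alternatives were total-count scaling, DESeq2 1.42.0 size factors, other filters, reads on the strand of the gene, Mir203 left out of totals, summed Mir196a genes, each replicate left out and the edgeR exact test with a common dispersion. Named genes were the 6 members, the related and marker lists, the 3 genes nearest in ratio to each tested member and neighbours in level. The members and lists were chosen with earlier results of these data known. Python 3.11.15, pandas 2.3.3, scipy 1.17.1 and matplotlib 3.10.9 were used.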

Additional observations from a re-analysis of the deposited data

How the results depend on the processing

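The ratios of the 5 genes that have one kept their direction under every alternative tried, from 1.33 to 1.36 for Mir10a, 1.74 to 1.77 for Mir196b, 1.70 to 1.77 for Mir196a-2, 0.06 to 0.10 for Mir10b and 0.12 to 0.16 for Mir615. Filters and the choice of test leave a ratio unchanged, so these ranges reflect only the scaling, strand and summing settings. Mir10b, at 0.078, lost its call in the edgeR exact test (adjusted p = 1), which called 7 of 333 genes where the exact binomial test called 178, and 2 of 4 members where that called 3. The count of members called was 4 of 6 without a filter, beside 26.3% of 708 genes. It was 4 of 5 with a mean of at least 10 reads, beside 48.1% of 385 genes. Under each other scaling or strand setting it was 3 of 4, beside 52.6% to 53.5% of all tested genes. Mir196a-2, at 1.72, was called once the filter admitted it, with exact binomial adjusted p = 0.00215 without a filter and 0.00117 with a mean of at least 10 reads. A minimum of 100 reads left Mir196b and Mir196a-2 untested, and 2 of the 3 tested members were called, beside 66.8% of 247 genes. When Mir203 was dropped from the totals, the level of Mir10b became 6432 CPM, that of Mir615 91.0 CPM and the sum of the 6 genes 6985 CPM, against 6432 ± 499 CPM (SD, n = 2), as every CPM is larger when the total is smaller. Apart from leaving out a replicate, 35 of 38 ratios neither gained nor lost a call, and 26 of 29 levels and shares moved by less than 1 SD. The 35 include ratios of Mir196a-2 under settings that did not test it, where no call could change. Leaving out a replicate leaves no ratio and gives the other pool's level, which with 2 pools is always within 1 SD of the mean and is no sign of stability. Levels then ran from 215 to 545 CPM for Mir10a, 18.0 to 60.7 CPM for Mir196b and 2.67 to 8.78 CPM for Mir196a-2, and the Mir10a share of Mir10 reads was then 3.60% or 8.22%. No paired analysis was possible because there is 1 group. Depth limits the Mir196a genes most, with at most 56 reads in a library.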
